A study of Mus musculus with 18 samples.

Results

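Mice with *Cldn10* deleted and their controls were compared in the cortical and the medullary thick ascending limb (TAL). All 18 pools of mouse TAL of the series were used, to describe genes that moved the same way in both parts. The genotype was compared over all pools in one additive model in which the segment, cortical (CTAL) or medullary (MTAL), was a block, so that the genotype coefficient is a difference averaged over both segments. The conditional knock-out (cKO) mice were *Cldn10* fl/fl; Ksp-Cre, in which the Ksp-cadherin promoter drives Cre in the distal nephron, and the controls, called WT, were *Cldn10* fl/fl littermates without Cre, so that the floxed alleles were shared by all mice. Cre was present in the cKO mice alone, and its own effect was not tested. There were 5 pools of cKO CTAL, 5 of WT CTAL, 3 of cKO MTAL and 5 of WT MTAL. All mice were adult males, labelled C57BL/6J. Each pool held tubules of 1 animal, dissected by hand from kidney treated with liberase, with the cortex as the source of CTAL and the inner stripe of outer medulla as that of MTAL. Poly-A RNA was sequenced as paired reads. The authors left out 2 cKO MTAL pools on quality and 1 cKO CTAL pool for its *Cldn10* level, and these were not analysed here. The paper states that cKO pools were kept only where *Cldn10* was significantly under the WT level. The cKO pools were thus in part chosen on *Cldn10*. The study describes dissection of cKO MTAL as hampered by calcium deposits in the kidney. Of the 55401 genes in the deposited table, 12586 had at least 3 CPM (counts brought to a common library total) in at least 3 pools and were tested. Levels below are CPM after TMM scaling of the library sizes, but for those of *Xist* alone, which rest on library totals.

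The TAL reabsorbs sodium chloride through the apical cotransporter NKCC2, encoded by *Slc12a1*, and the voltage that this transport sets up drives cations between the cells, through tight junctions. Claudins line these junctions and set which ions pass. Claudin-10, in its renal form claudin-10b, makes a pore for sodium, whereas claudin-16 and claudin-19 together serve the passage of calcium and magnesium, and claudin-14 limits it downstream of the calcium-sensing receptor. The cortical part of the TAL is the main site of calcium and magnesium reabsorption and responds to parathyroid hormone.

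The summed counts of a pool were between 10824328 and 62339991, with 20364 to 25265 genes detected. The 10 most abundant genes took 18% to 25.6% of the counts. The pool WT CTAL replicate 1 carries a title and a genotype label of the knock-out and a pool name of WT. It was used as WT, and its *Cldn10* level of 448 CPM lay among the other WT CTAL pools. Counted as cKO instead, it gave 1071 calls in place of 1112, of which 928 were shared. *Xist*, the RNA made from the inactive X chromosome of female cells, was at 6.37 to 8.58 CPM in 7 pools and at most at 0.743 CPM in the others, although all mice are described as male. These 7 pools were 1 of the 8 cKO and 6 of the 10 WT pools, and *Xist* with 4 Y-linked genes summed to between 90.8 and 129 CPM in every pool. In the 11 pools without *Xist* reads above 1 CPM, of which 7 were cKO and 4 WT, with 1 WT MTAL pool left, 78 genes were called, all of them among the 1112. With a term for *Xist* in the model of all pools, 509 genes were called and 495 were shared. The counts in the main gene lists are therefore given for these 11 pools too.

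At an adjusted p under 0.05 (edgeR quasi-likelihood test, Benjamini-Hochberg), 1112 genes differed between genotypes, 8.84% of those tested. Of these, 630 rose in cKO (5.01%) and 482 fell (3.83%), and 220 changed at least 2-fold (1.75%), 156 upwards and 64 downwards. At an unadjusted p under 0.05 there were 2949. Without cKO MTAL replicate 18, 747 genes were called, 733 of them shared, and the falls numbered 315. The log2 fold change of cKO over WT had a median of 0.01 over all genes. The share of calls that were rises was 56.7%, and it was 73.9% with library totals in place of TMM scaling, under which the median of all genes moved to 0.0708. On TPM without TMM scaling it was 89.1%, with a median of 0.159, and on TPM with TMM scaling 55% of 545 calls. None of the 109 genes chosen for full statistics that was called changed direction under these settings. *Slc12a1*, which was not called, ranged from −0.147 to 0.042 on the log2 scale over all alternatives. On log2(TPM + 1), log2(TPM + 0.1) and TPM with TMM scaling alike, the calls of *Egfr*, *Pcx*, *Nr3c2*, *Ppargc1a*, *Id3*, *Fosb*, *Slc14a2*, *Aqp1*, *Cry2*, *Ptges* and *Foxi1* were lost.

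The segments were then fitted apart, each on its own pools. In CTAL 147 genes were called (1.17% of those tested) and in MTAL 859 (6.83%). With 1 pool left out, CTAL gave 76 to 96 calls without WT CTAL replicate 10, 3 or 22 or cKO CTAL replicate 21, 7 or 9, and up to 184 without the others. MTAL gave 474 to 557 calls without cKO MTAL replicate 20 or WT MTAL replicate 15, 17 or 19, and up to 1013 without the others. Of the 147 CTAL genes, 145 (98.6%) had the same sign in MTAL, and 106 (72.1%) were called there as well. Of the 859 MTAL genes, 742 (86.4%) had the same sign in CTAL, and the same 106 (12.3%) were called there. Over all genes tested the signs matched for 62.1%. The 106 genes called in both segments were 69 rises and 37 falls. Among the 1112 genes of the additive model, 32 more were called in CTAL alone, 488 in MTAL alone and 486 in neither segment on its own.

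Most genes called in the additive model had the larger change in MTAL. These were 991 of the 1112 (89.1%), against 74.7% of all genes tested and 68.7% of the genes called in CTAL. A large change in MTAL alone can bring a gene into the 1112, so this share is in part set by the choice of genes. The median absolute log2 fold change of the called genes was 0.39 in CTAL and 0.744 in MTAL, beside 0.119 and 0.259 over all genes. MTAL had 3 cKO pools and CTAL 5. The difference between segments passed its own test, an interaction term over all pools, for 36 genes (0.286%), of which 28 were among the 1112. This count was 569 without cKO MTAL replicate 18, 116 without WT MTAL replicate 13, 60 without WT MTAL replicate 11 and 15 to 23 with any 1 of 9 other pools left out. In 178 genes (1.41%) every cKO pool lay on the same side of every WT pool in both segments, and 177 of them were called, 105 higher and 72 lower in cKO.

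**Figure D1:**
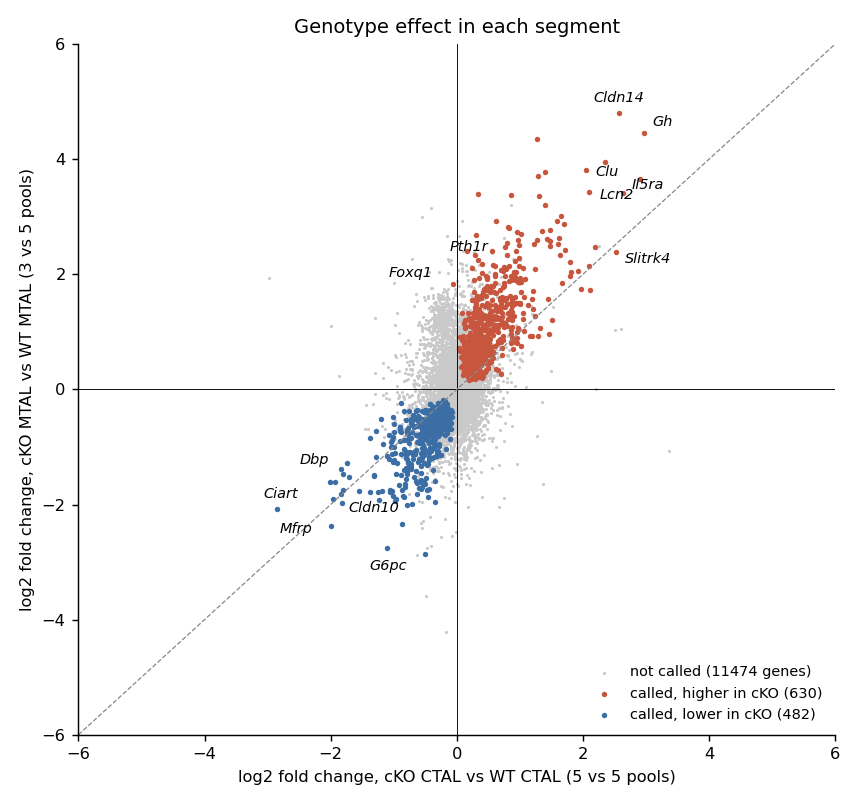
Log2 fold change of cKO over WT in CTAL (horizontal axis) against MTAL (vertical axis), each point a gene tested, with the genes called in the additive model in colour. Called genes fall mostly in the upper right and lower left, and 991 of the 1112 have the larger change in MTAL. Signs matched for 62.1% of all genes.

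*Cldn10* (ENSMUSG00000022132, chr14:118787908-118875489 of GRCm38, plus strand), the deleted gene, was at 386, 448, 531, 562 and 582 CPM in WT CTAL and at 157, 171, 175, 176 and 186 CPM in cKO CTAL. Its MTAL levels were 656, 738, 778, 781 and 814 CPM in WT pools and 152, 219 and 297 CPM in cKO pools. No cKO pool reached a WT pool of its segment, and transcripts were left in all 8 cKO pools. As the authors kept cKO pools in part on this level, the gap and its p-value are in part set by that choice. The fall was 3.1-fold (log2 fold change −1.63, SE 0.11, adjusted p = 2.55e-09). The fall in MTAL and that in CTAL differed by −0.23 on the log2 scale (95% interval −0.65 to 0.2).

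Of 13 claudin genes tested, 5 rose and 2 fell (53.8%, beside 8.84% of all genes), with a median log2 fold change of 0.33. *Cldn14* (chr16:93919031-94008837, minus strand) had the largest rise of the claudins. Its levels were 2.31, 3.5, 4.32, 5.9 and 6.3 CPM in WT CTAL and 15, 21.6, 26.8, 35.4 and 35.6 CPM in cKO CTAL. In MTAL they were 1.33, 1.39, 1.56, 1.64 and 5.04 CPM in WT pools, against 18.5, 19.3 and 154 CPM in cKO pools. The genotypes did not overlap in either segment, and the 154 CPM came from the cKO MTAL pool replicate 20. The rise was 11.8-fold (log2 fold change 3.56, SE 0.45, adjusted p = 2.32e-05), and without cKO MTAL replicate 20 the log2 fold change was 2.75 (adjusted p = 2.3e-06). *Cldn16* (chr16:26463135-26482765, plus strand) was at 67.7 to 92.6 CPM in WT CTAL (n = 5) and 96.5 to 124 CPM in cKO CTAL (n = 5). In MTAL it rose from 19.6, 20.3, 20.8, 21.8 and 25.1 CPM to 63.2, 63.3 and 86.1 CPM. The averaged rise was 2.04-fold (log2 fold change 1.03, SE 0.15, adjusted p = 0.000115), and the genotypes were apart in both segments. The rise on the log2 scale was 0.49 in CTAL and 1.72 in MTAL, a difference of 1.23 (95% interval 0.88 to 1.57, adjusted p = 0.00121).

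*Cldn19*, the partner of claudin-16, rose less, with a log2 fold change of 0.36 (adjusted p = 0.0106), and its CTAL pools overlapped, at 373 to 464 CPM in WT and 433 to 500 CPM in cKO. *Cldn8* (0.33 on the log2 scale) and *Cldn4* (1.21) rose as well, and *Cldn15* fell (−0.63). *Cldn4* lost its call when cKO CTAL replicate 2, cKO MTAL replicate 18 or 20, or WT MTAL replicate 17 or 19 was left out, and *Cldn15* lost it when any 1 of 10 pools was left out. *Cldn3* (−0.04), *Cldn12* (−0.03), *Cldn7* (0.23), *Cldn1* (0.73), *Cldn2* (0.72) and *Cldn5* (−1.12) were not called. Without the *Xist* pools, 1 claudin rose (*Cldn14*, log2 fold change 2.78, adjusted p = 0.0413) and 1 fell (*Cldn10*, −1.51, adjusted p = 0.000228). Among 27 genes of tight junction partners 3 rose and 3 fell (22.2%), with a median of −0.05. On TPM without TMM scaling 2 of the 27 rose and no member fell, with a median of 0.134. *Ildr1*, which encodes angulin-2 of tricellular junctions, rose 1.28-fold (adjusted p = 0.00467) with the genotypes apart in both segments. In the 11 pools none of the 27 passed the edgeR test, 4 had an unadjusted p under 0.05, and *Ildr1* had an adjusted p of 0.0681.

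Of 22 genes of calcium, magnesium and phosphate handling, 7 rose and 1 fell (36.4%, beside 8.84% of all genes). The median of the list was 0.33, and 3 members were apart in both segments, beside 1.41% of all genes. *Pth1r* (chr9:110722085-110747145, minus strand), the receptor of parathyroid hormone, was at 196, 242, 244, 297 and 306 CPM in WT CTAL and at 390, 436, 456, 470 and 503 CPM in cKO CTAL. The MTAL pools were at 43.8, 44.7, 52.7, 63.5 and 68.7 CPM in WT pools and at 186, 305 and 339 CPM in cKO pools. All cKO pools lay above the WT pools of their segment. *Pth1r* rose 2.8-fold (log2 fold change 1.48, SE 0.2, adjusted p = 3.75e-05), by 0.8 in CTAL and 2.34 in MTAL on the log2 scale. These differed by 1.53 (95% interval 1.05 to 2.01, adjusted p = 0.00356).

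*Kl* (chr5:150952607-150993817, plus strand), which encodes klotho, the coreceptor of fibroblast growth factor 23, was at 458, 461, 486, 492 and 575 CPM in WT CTAL and 618, 760, 796, 806 and 816 CPM in cKO CTAL. In MTAL its levels were 209, 219, 230, 240 and 254 CPM in WT and 452, 558 and 608 CPM in cKO pools. The groups were apart in both segments, and *Kl* rose 1.84-fold (log2 fold change 0.88, SE 0.09, adjusted p = 4.07e-06). *S100g*, the calcium-binding protein calbindin-D9k and a target of vitamin D, rose 3.2-fold (adjusted p = 0.000672), from 5.32 to 8.71 CPM in WT CTAL to 8.85 to 24.2 CPM in cKO CTAL, and in MTAL from 1.74 to 3.36 CPM in WT to 4.81, 19.2 and 20.1 CPM in cKO MTAL. *Vdr*, the vitamin D receptor, rose 1.47-fold (adjusted p = 0.00122) and *Casr*, the calcium-sensing receptor, 1.34-fold (adjusted p = 0.00171), both with overlap in CTAL. *Atp2b4*, a plasma membrane calcium pump, and *Slc20a2*, a phosphate transporter, were the other rises. *Egfr*, the receptor through which EGF acts on magnesium transport further downstream, fell 1.4-fold (adjusted p = 0.00854), but was not called with the *Xist* term, and its log2 fold change was −0.0071 on log2(TPM + 1). Over the 11 pools left without *Xist*, 1 of the 22 was called, *Kl* (log2 fold change 0.76, adjusted p = 0.0382), and the median stayed at 0.333. *Pth1r* had a log2 fold change of 1.09 and an adjusted p of 0.062 there.

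Of 27 genes of sodium chloride transport, 6 rose and 3 fell (33.3%, beside 8.84% of all genes), with a median of 0.1. *Slc12a1* itself was at 13587, 13746, 14465, 14930 and 15192 CPM in WT CTAL and at 11681, 13652, 13883, 14566 and 15590 CPM in cKO CTAL. Levels in MTAL were 14892, 15192, 15425, 15531 and 16221 CPM in WT and 11477, 14502 and 14730 CPM in cKO pools. The genotypes overlapped in CTAL and not in MTAL, and the log2 fold change was −0.11 (SE 0.07, adjusted p = 0.328).

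*Wnk1*, the kinase that acts on the cation chloride cotransporters, rose 1.89-fold (adjusted p = 2.32e-05), from 572 to 832 CPM in WT CTAL to 1014 to 1513 CPM in cKO CTAL, and in MTAL from 272 to 309 CPM in WT to 502, 514 and 908 CPM in cKO MTAL. *Kcnt1*, a sodium-activated potassium channel, fell 2.57-fold (adjusted p = 3.66e-05), and its genotypes were also apart in both segments, with 220 to 377 CPM in WT MTAL and 62.3 to 83 CPM in cKO MTAL. *Fxyd2*, the gamma subunit of the sodium pump, fell 1.51-fold (adjusted p = 0.000382). *Kcnj16*, *Klhl3*, *Kcnk1* and *Umod* rose by 0.32 to 0.41 on the log2 scale. *Umod* lost its call without any 1 of the 3 cKO MTAL pools. The sodium pump subunit *Atp1b1* (0.03) and the barttin gene *Bsnd* (0.33) were not called. In the 11 pools without *Xist*, *Kcnt1* was the only call of this list (log2 fold change −1.19, adjusted p = 0.0183), and without the segment term the list gave 2 rises and 3 falls.

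The largest rise of all called genes whose pools were apart in both segments was that of *Gh* (chr11:106300271-106301865, minus strand), which encodes growth hormone, a hormone of the pituitary. It was at 0.473, 0.644, 0.738, 0.977 and 1.01 CPM in WT CTAL and at 4.14, 6.14, 6.19, 7.21 and 7.49 CPM in cKO CTAL. Its MTAL levels were 0.151, 0.322, 0.348, 0.511 and 0.973 CPM in WT and 4.96, 6.29 and 20.6 CPM in cKO pools. The lowest cKO pool was above all WT pools of both segments, and the rise was 12.3-fold (log2 fold change 3.62, SE 0.36, adjusted p = 1.84e-06). The highest value again came from cKO MTAL replicate 20.

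*Igf1* (chr10:87858265-87937042, plus strand), the growth factor that growth hormone induces in liver, went the other way. It was at 14.2, 17.4, 20.3, 20.6 and 23.4 CPM in WT CTAL and at 6.87, 7.67, 8.2, 8.89 and 9.36 CPM in cKO CTAL. The MTAL pools were at 23.4, 29.1, 31.3, 36.1 and 38.4 CPM in WT and at 4.64, 9.87 and 10.6 CPM in cKO pools. No pools overlapped, and *Igf1* fell 2.86-fold (log2 fold change −1.51, SE 0.17, adjusted p = 6.04e-06). Among 19 genes of the growth hormone, insulin and IGF axis, 2 rose and 3 fell (26.3%, beside 8.84% of all genes). The median was −0.12, and it was 0.0459 on TPM without TMM scaling. The other rise was *Igfbp4*, which encodes a binding protein of IGF (2.43-fold, adjusted p = 0.000216), and the other falls were *Irs1*, the insulin receptor substrate (1.59-fold, adjusted p = 0.00128), and *Igfbp5*. *Ghr* (0.03) and *Igf1r* (−0.16), which encode the receptors, were not called. Without the *Xist* pools, *Gh* (log2 fold change 3.08, adjusted p = 0.00567) and *Igf1* (−1.5, adjusted p = 0.00523) kept their calls and no other member of the list had one.

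Further large rises with groups apart in both segments were those of *Il5ra*, the receptor subunit for interleukin-5 (7.91-fold), *Slitrk4*, a neuronal adhesion protein (5.56-fold), *Slc24a3*, a sodium/calcium/potassium exchanger (4.97-fold), *Asb11*, a ubiquitin ligase adaptor (4.46-fold), *Car15*, a membrane-bound carbonic anhydrase (4.13-fold), *Pcp4l1* (4.05-fold) and *Dcdc2a*, a protein of the primary cilium (3.85-fold). *Car15* was the most abundant of these, at 245 to 359 CPM in WT CTAL and 579 to 1250 CPM in cKO CTAL. In MTAL *Car15* was at 46 to 92.6 CPM in WT and 245, 494 and 605 CPM in cKO pools. *Dcdc2a* had the smallest adjusted p of them, 1.84e-06, with 8.4 to 22.5 CPM in WT MTAL and 65, 66.4 and 102 CPM in cKO MTAL. All 7 were called in the 11 pools without *Xist*, at adjusted p between 0.0057 and 0.0228.

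Among the falls, *Mfrp* (chr9:44101729-44109187, plus strand), a frizzled-related membrane protein known from the eye, was at 19.2, 22.2, 27.2, 29.2 and 31.4 CPM in WT CTAL and at 3.72, 4.89, 6.17, 8.67 and 8.79 CPM in cKO CTAL. Levels in MTAL were 37.3, 48.9, 55.3, 56.3 and 83.1 CPM in WT and 7.74, 12.3 and 12.4 CPM in cKO pools. The groups were far apart in both segments, and the fall was 4.45-fold (log2 fold change −2.16, SE 0.18, adjusted p = 2.91e-07). *Mfrp* overlaps *C1qtnf5* in the annotation, and how reads of overlapping genes were assigned is not stated. *Sema3d*, a secreted semaphorin (3.66-fold), *Ano4*, of the anoctamin family of channels and scramblases (3.54-fold), and *Rasef*, a Rab-like GTPase (3.46-fold), fell with groups apart in both segments. *Sema3d* and *Rasef* were at or under 8.21 CPM in every pool, and *Sema3d* lost its call on TPM with a pseudocount of 1.

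*G6pc* (chr11:101367561-101377903, plus strand), the catalytic subunit of glucose-6-phosphatase, which releases glucose from gluconeogenesis, was at 8.21, 10.2, 10.6, 12.5 and 16.6 CPM in WT CTAL and at 4.48, 4.66, 5.35, 6.13 and 6.23 CPM in cKO CTAL. In MTAL it was at 44.5, 49.4, 53.3, 66.7 and 93.6 CPM in WT and at 6.49, 6.84 and 14.1 CPM in cKO pools. The fall was 3.43-fold (adjusted p = 0.000121) and larger in MTAL, with a difference of −1.67 on the log2 scale (95% interval −2.41 to −0.93, adjusted p = 0.0453). Of 23 genes of glycolysis and gluconeogenesis 3 fell (13%, beside 8.84% of all genes) and no member rose, with a median of 0.09. The others were *Aldoc*, an aldolase (1.58-fold, adjusted p = 0.00032), and *Pcx*, pyruvate carboxylase (1.41-fold, adjusted p = 0.0122). Under the likelihood ratio test of edgeR 3 members rose and 3 fell. Over the 11 pools left without *Xist*, *G6pc* alone was called (log2 fold change −1.69, adjusted p = 0.0228).

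**Figure D2:**
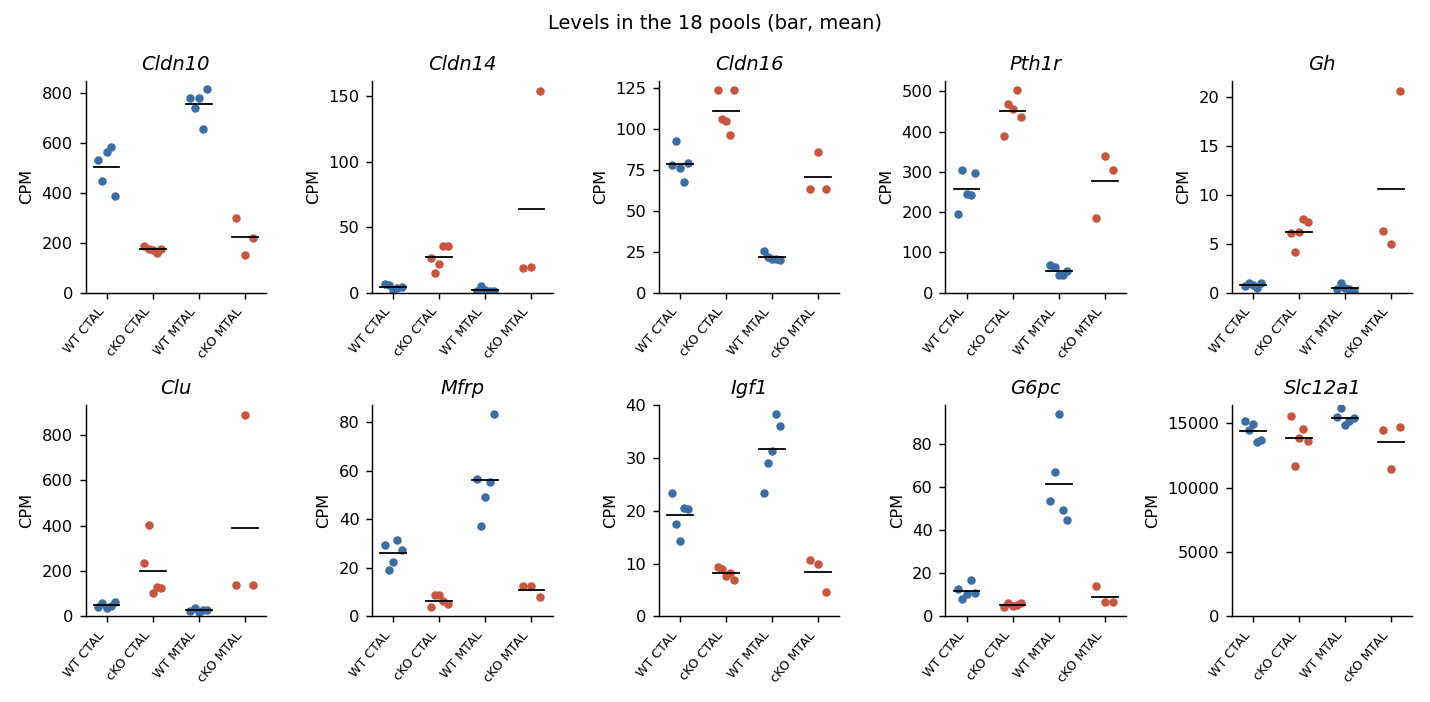
CPM of 10 genes in each pool, by genotype and segment, on linear axes that start at 0, with points for pools and bars for group means. The cKO and WT pools of a segment do not overlap for any of the genes but *Slc12a1*, whose CTAL pools overlap.

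The circadian clock list held the largest share of called genes of the lists of pathways. In the core loop, the proteins of *Arntl* (BMAL1) and *Clock* or *Npas2* activate genes through E-boxes, among them *Per*, *Cry*, *Nr1d1* and *Nr1d2*, whose proteins feed back on the activators, and *Dbp*, *Tef* and *Hlf* encode factors that act through D-boxes. Of 19 genes tested 9 fell and 2 rose, 57.9% of the list beside 8.84% of all genes, with a median log2 fold change of −0.57. The falls were *Ciart*, *Hlf*, *Dbp*, *Per2*, *Per3*, *Tef*, *Nr1d2*, *Nr1d1* and *Cry2*, and the rises were *Npas2* and *Arntl*.

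*Ciart* (chr3:95878503-95882251, minus strand), a repressor of the clock activators, had the largest fall, 5.66-fold (log2 fold change −2.5, SE 0.42, adjusted p = 0.000421). It was at 2.08, 2.42, 3.08, 5.26 and 12 CPM in WT CTAL and 0.306, 0.517, 0.772, 0.856 and 1.09 CPM in cKO CTAL, and at 2.52, 2.71, 3.15, 10.8 and 11.5 CPM in WT MTAL and 1.34, 1.49 and 1.55 CPM in cKO MTAL. The groups were apart in both segments, and the WT pools spread over a wide range. *Dbp* (chr7:45705088-45710203, plus strand) was at 80.9, 91.3, 103, 107 and 177 CPM in WT CTAL and at 16.6, 26.2, 36, 36.5 and 46.6 CPM in cKO CTAL. Its MTAL levels were 53.8, 66.1, 72.2, 95.7 and 168 CPM in WT and 19.1, 32.3 and 47.5 CPM in cKO pools. *Dbp* fell 3.16-fold (log2 fold change −1.66, SE 0.23, adjusted p = 7.35e-05), and its genotypes did not overlap.

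*Hlf* (3.41-fold, adjusted p = 8.72e-05), *Tef* (2.18-fold, adjusted p = 4.56e-05) and *Nr1d2* (1.95-fold, adjusted p = 1.4e-05) fell with groups apart in both segments, as did *Per3* (2.6-fold, adjusted p = 0.00104). *Per2* fell 2.91-fold (adjusted p = 0.00114) and its MTAL pools overlapped, at 12 to 43.6 CPM in WT and 7.34 to 12.5 CPM in cKO. The WT pools CTAL replicate 8 and MTAL replicate 17 were the highest of their groups for *Dbp*, *Hlf*, *Tef*, *Per2*, *Per3* and *Cry2*, and were the lowest of their groups for *Arntl*. *Arntl* was at 2.46, 3.76, 4.35, 4.77 and 6.1 CPM in WT CTAL and at 7.24, 9.76, 12.2, 12.3 and 19.3 CPM in cKO CTAL. In MTAL its pools overlapped, at 2.17 to 10.3 CPM in WT and 9.11 to 22.3 CPM in cKO, and the rise was 2.6-fold (adjusted p = 0.00172). *Npas2* rose 3.86-fold (adjusted p = 0.000569), with overlap in CTAL.

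*Clock* (0.07), *Per1* (−0.1), *Cry1* (−0.44), *Bhlhe40* (−0.03) and *Nfil3* (0.27) were not called. For none of the 11 called genes of the list did the difference between segments pass its test. With 1 pool left out at a time, the list gave 8 to 9 falls and 2 rises. *Cry2* lost its call when any 1 of 10 pools was left out. In the 11 pools without *Xist*, 5 fell (*Ciart*, *Dbp*, *Hlf*, *Tef* and *Nr1d2*) and 1 rose (*Npas2*), with a median of −0.391.

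**Figure D3:**
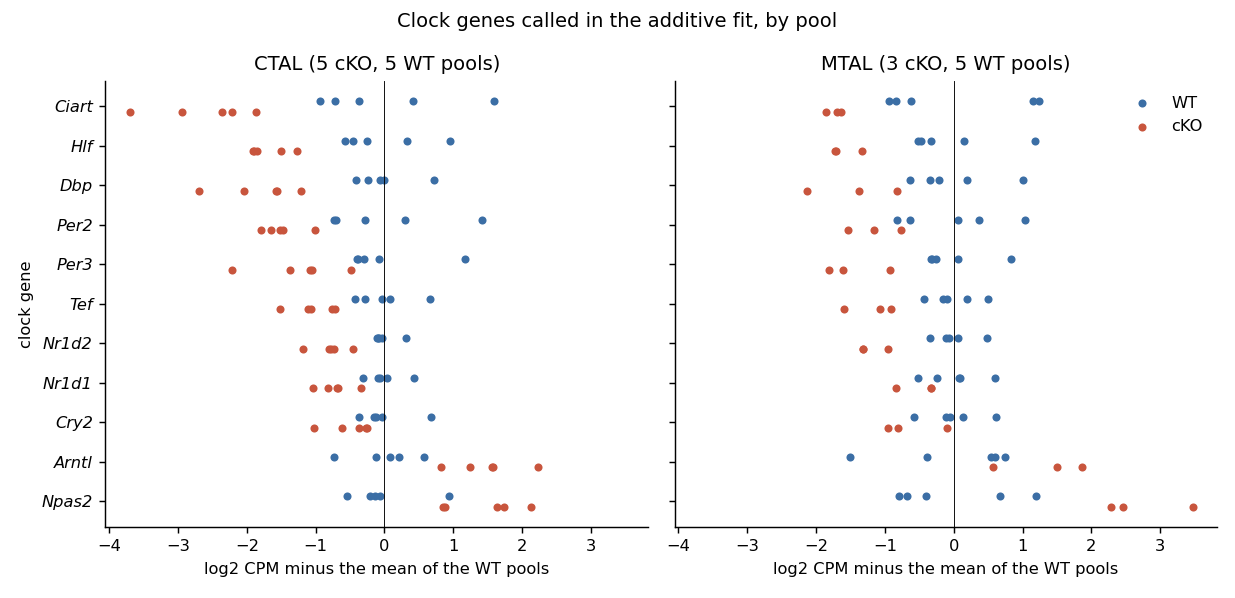
Log2 CPM of the 11 called clock genes in each pool, minus the mean of the WT pools of the same segment, so that 0 is the WT level. The cKO pools lie below 0 for the 9 genes that fell and above 0 for *Npas2* and *Arntl*, and the WT pools spread around 0.

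For the promoters of these genes, 300-base windows from 250 bases before to 50 after the RefSeq start were read on GRCm38.p6. Windows were held for 16 of the 19 genes, 21 windows in all, so that some genes had more than 1 chance of a match. The E-box CACGTG stood in the windows of 5 of these 16 genes (*Bhlhe41*, *Ciart*, *Cry1*, *Per1* and *Tef*), beside 7.15% of 32851 windows of all genes. Of the 5, 2 were among the 10 called genes with a window. The D-box TTATGTAA, searched on both strands, stood in the window of 1 gene, *Per3*, beside 0.938% of all windows. A match says only that the letters are present. The windows of the called genes with a match are shown on the strand of the gene, with the motif letters in capitals: *Ciart* at chr3:95882179-95882478 (minus strand, 3 E-boxes from −116, −58 and −44), *Tef* at chr15:81802423-81802722 (plus strand, 1 E-box from −127) and *Per3* at chr4:151044616-151044915 (minus strand, 2 D-boxes from −205 and −158), with positions relative to the start.
Ciart: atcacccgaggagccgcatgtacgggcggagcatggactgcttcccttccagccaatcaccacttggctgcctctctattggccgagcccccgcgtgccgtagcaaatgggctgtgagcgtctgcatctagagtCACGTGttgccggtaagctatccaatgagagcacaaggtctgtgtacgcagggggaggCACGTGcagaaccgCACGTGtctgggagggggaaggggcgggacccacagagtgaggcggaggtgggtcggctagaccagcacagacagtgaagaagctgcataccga
Tef: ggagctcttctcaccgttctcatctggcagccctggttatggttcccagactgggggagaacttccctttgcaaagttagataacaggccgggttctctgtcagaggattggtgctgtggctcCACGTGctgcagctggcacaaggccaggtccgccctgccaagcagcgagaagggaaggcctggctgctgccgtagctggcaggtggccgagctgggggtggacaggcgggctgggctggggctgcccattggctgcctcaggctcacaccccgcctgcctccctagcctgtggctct
Per3: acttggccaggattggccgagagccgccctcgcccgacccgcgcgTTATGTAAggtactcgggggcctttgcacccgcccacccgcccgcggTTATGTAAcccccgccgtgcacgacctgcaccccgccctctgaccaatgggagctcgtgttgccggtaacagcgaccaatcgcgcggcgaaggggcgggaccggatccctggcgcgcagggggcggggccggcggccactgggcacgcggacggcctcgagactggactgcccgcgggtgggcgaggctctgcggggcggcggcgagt

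Genes of tubular injury and repair rose in part. Of 27 tested 7 rose (25.9%, beside 8.84% of all genes) and none fell, with a median of 0.23. Of the list 4 had groups apart in both segments, beside 1.41% of all genes. *Clu* (chr14:65968483-65981547, plus strand), the secreted chaperone clusterin, was at 35.5, 39.3, 46.3, 57.1 and 60.9 CPM in WT CTAL and at 103, 127, 129, 234 and 405 CPM in cKO CTAL. The MTAL pools were at 19.9, 25.5, 27.2, 28.7 and 36.8 CPM in WT and at 136, 137 and 891 CPM in cKO pools. All cKO pools were above all WT pools, with cKO CTAL replicate 2 and cKO MTAL replicate 18 highest, and the rise was 7.15-fold (log2 fold change 2.84, SE 0.37, adjusted p = 3.1e-05). *Lcn2*, the iron-carrier binding lipocalin used as a marker of tubular injury, rose 6.53-fold (adjusted p = 0.000814) and was uneven. It was at 4.92 to 8.21 CPM in WT CTAL and at 6.73, 7.54, 8.67, 27.5 and 85 CPM in cKO CTAL, and at 6.5 to 13.6 CPM in WT MTAL and 22.2, 46.2 and 283 CPM in cKO MTAL, with the same 2 pools highest. Without cKO MTAL replicate 18 the log2 fold change was 2.15 for *Clu* and 1.94 for *Lcn2*, both still called.

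The epithelial keratin *Krt18* (2.13-fold, adjusted p = 0.000169) rose with groups apart in both segments. So did *Spp1*, which encodes osteopontin, a protein that binds calcium crystals (1.24 on the log2 scale). The transcription factor *Sox9* (1.03) and *Tnfrsf12a* (0.82) also rose. *Krt8* (0.17), *Vcam1* (−0.44), *Cd44* (0.23) and *Vim* (0.2) were not called. Without the *Xist* pools, *Krt18* was the only call of the list (log2 fold change 0.89, adjusted p = 0.0413), and *Clu* had a log2 fold change of 1.95 with an adjusted p of 0.147.

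Of 25 genes of cholesterol synthesis and uptake, 6 rose (24%, beside 8.84% of all genes) and none fell. A positive log2 fold change was seen in 23 of the list, with a median of 0.22. *Mvd* (chr8:122433601-122443422, minus strand), which encodes a decarboxylase of the mevalonate pathway, was at 3.16, 3.58, 4.07, 4.82 and 4.86 CPM in WT CTAL and at 5.03, 5.93, 5.96, 7.4 and 9.16 CPM in cKO CTAL. Its levels in MTAL were 2.81, 3.09, 3.57, 4.29 and 5.34 CPM in WT and 7.44, 7.92 and 12.1 CPM in cKO pools. The groups were apart in both segments at these low levels, and *Mvd* rose 1.94-fold (log2 fold change 0.95, SE 0.19, adjusted p = 0.00251). *Mvd* overlaps the predicted gene *Gm20388* in the annotation. The genes *Fdps*, *Cyp51*, *Stard4* and *Hmgcs1* rose by 0.22 to 0.83 on the log2 scale. Over the 11 pools left without *Xist*, none of the 25 was called by edgeR, 13 had an unadjusted p under 0.05, and the median was 0.308.

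Of 24 genes of protein folding in the endoplasmic reticulum and of amino acid stress, 8 rose and 1 fell, with a median of 0.23. The called share was 37.5%, beside 8.84% of all genes. The rises were chaperones and disulfide isomerases of the lumen, *Pdia4*, *Pdia6*, *Pdia3*, *Calr*, *Hspa5*, *Hyou1*, *Dnajb11* and *Sdf2l1*. *Pdia4* rose 1.51-fold (adjusted p = 0.00348), from 75.3 to 88.8 CPM in WT CTAL to 89.1 to 198 CPM in cKO CTAL, and in MTAL from 81.4 to 100 CPM in WT to 119, 121 and 186 CPM in cKO MTAL, with no overlap. *Calr*, the calcium-binding chaperone calreticulin, rose 1.45-fold (adjusted p = 0.00757) and *Pdia6* 1.44-fold (adjusted p = 0.00713), both with overlap in CTAL, for *Pdia6* of 1 WT and 1 cKO pool at 107 CPM. *Chac1*, a target of the amino acid stress factor ATF4, fell by 1.24 on the log2 scale, and *Atf4* (−0.07), *Asns* (0.15) and *Xbp1* (0.14) were not called. The cKO CTAL pool replicate 2 was highest for *Pdia4* (198 CPM), *Pdia6* (206), *Calr* (951) and *Sdf2l1* (41.6). With 1 pool left out at a time 4 to 9 members rose, 4 of them without cKO MTAL replicate 18. In the 11 pools without *Xist*, none of the 24 was called by edgeR and 5 had an unadjusted p under 0.05.

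The endoplasmic reticulum stress element, CCAAT and CCACG with 9 bases between them, stood in the RefSeq windows of 7 of the 22 genes of the list that had one (*Calr*, *Canx*, *Creld2*, *Dnajc3*, *Hsp90b1*, *Hspa5* and *Pdia6*), beside 0.119% of all 32851 windows on either strand. The 22 genes had 24 windows. Of the 7 genes with the element, *Calr*, *Hspa5* and *Pdia6* were called. The element is shown in capitals in the windows of *Calr*, at chr8:84846882-84847181 (minus strand, from −162, where it lies on the opposite strand), and of *Pdia6*, at chr12:17266339-17266638 (plus strand, from −98), both of GRCm38.p6.
Calr: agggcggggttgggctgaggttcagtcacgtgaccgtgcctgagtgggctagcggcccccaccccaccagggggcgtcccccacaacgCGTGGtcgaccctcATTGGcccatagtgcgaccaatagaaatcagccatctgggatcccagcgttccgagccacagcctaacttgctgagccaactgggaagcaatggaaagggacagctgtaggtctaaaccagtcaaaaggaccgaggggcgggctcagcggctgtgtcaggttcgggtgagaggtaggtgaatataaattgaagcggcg
Pdia6: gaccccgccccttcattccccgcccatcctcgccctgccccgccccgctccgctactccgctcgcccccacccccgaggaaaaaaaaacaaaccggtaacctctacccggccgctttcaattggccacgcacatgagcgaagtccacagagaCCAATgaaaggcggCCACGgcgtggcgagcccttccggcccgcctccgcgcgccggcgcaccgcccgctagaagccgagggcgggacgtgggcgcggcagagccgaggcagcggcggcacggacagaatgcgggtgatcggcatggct

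Of 28 transcription factors of the TAL and distal nephron 3 rose and 5 fell (28.6%, beside 8.84% of all genes), with a median of 0.04. With 1 pool left out 1 to 3 rose and 3 to 5 fell, and on TPM without TMM scaling 2 rose and none fell. *Nr3c2*, the mineralocorticoid receptor, fell 1.27-fold (adjusted p = 0.0138) with no overlap, from 47.6 to 53.1 CPM in WT CTAL to 33.9 to 46.9 CPM in cKO CTAL, and in MTAL from 36 to 50 CPM in WT to 28.3, 29 and 29.6 CPM in cKO MTAL. *Nr3c1*, the glucocorticoid receptor, fell 1.28-fold (adjusted p = 0.00498) and *Ppargc1a*, the coactivator of mitochondrial genes, 1.31-fold (adjusted p = 0.014). *Pou3f3* and *Sim1* fell by 0.24 and 0.37 on the log2 scale. *Tfcp2l1*, a factor of intercalated and other distal cells, rose 1.58-fold (adjusted p = 0.00259), and *Emx1* and *Foxq1* rose. *Emx1*, a homeobox gene, had the largest log2 fold change of the list (2.32, SE 0.68, adjusted p = 0.0338) at low and uneven levels, with means of 1.09 ± 1.15 CPM in WT CTAL and 2.38 ± 2.44 CPM in cKO CTAL (SD, n = 5), and of 0.304 ± 0.236 CPM in WT MTAL (n = 5) and 4.23 ± 6.1 CPM in cKO MTAL (n = 3). *Foxq1* was the only called gene with opposite signs in the segments (−0.05 in CTAL and 1.83 in MTAL, a difference of 1.88, adjusted p = 0.00121). Without the *Xist* pools, no gene of this list was called by edgeR and 7 had an unadjusted p under 0.05.

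Of 30 genes of Wnt, Notch and BMP signalling, 2 rose and 5 fell (23.3%, beside 8.84% of all genes). With 1 pool left out 2 to 3 rose and 2 to 5 fell. The median was −0.11, and it was 0.113 on TPM without TMM scaling. *Wnt7b*, a Wnt ligand, fell 1.7-fold (adjusted p = 0.000377) and was the only gene of the list called in the 11 pools (log2 fold change −0.86, adjusted p = 0.0183). *Sfrp1*, a secreted Wnt antagonist, rose 2.47-fold (adjusted p = 0.00125), at 205 to 522 CPM in WT CTAL and 317 to 1001 CPM in cKO CTAL, and in MTAL from 31.7 to 62.7 CPM in WT to 147, 167 and 279 CPM in cKO MTAL. The ligand *Bmp6* rose 2.69-fold (adjusted p = 0.00467), and *Id3*, a target of BMP signalling, fell 1.84-fold (adjusted p = 0.0163). In the 11 pools the adjusted p was 0.0976 for *Sfrp1*, 0.493 for *Bmp6* and 0.645 for *Id3*, and with the *Xist* term 2 of the list rose and 1 fell. *Arg2*, the mitochondrial arginase, rose 3.59-fold (adjusted p = 0.000177) with groups apart in both segments and was the only call among 15 genes of polyamine and arginine metabolism, with an adjusted p of 0.0917 in the 11 pools.

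The other lists had at most a few called genes. Called members were 15% of the immediate early list, 6.9% of the cAMP list, 11.8% of the hypoxia list and 14.3% of the osmolyte list. Over all genes tested the share was 8.84%. Of 20 immediate early genes 1 rose and 2 fell, with a median of −0.46, and 10 had an unadjusted p under 0.05. With 1 pool left out 2 to 5 of the list fell. *Ier3* rose 2.73-fold (adjusted p = 0.000312), and *Myc* (2.09-fold, adjusted p = 0.000987) and *Fosb* (2.04-fold, adjusted p = 0.0215) fell, although *Fosb* overlapped in MTAL, where WT replicate 11 reached 667 CPM. Of 29 genes of cAMP and prostaglandin signalling *Pde3b* and *Ptges* rose, both without a call once cKO MTAL replicate 20 was left out. Of 17 genes of the hypoxia response *Car12* rose and *Epas1* fell, and of 14 osmolyte genes *Slc14a2* and *Aqp1* fell. Neither was called with the *Xist* term, where *Aqp1* moved from −0.88 to −0.36 on the log2 scale, and *Aqp1* lost its call when any 1 of 8 pools was left out. Of 80 oxidative phosphorylation subunits 2 fell (*Cox7a1*, 2.16-fold, and *Sdhb*, 1.17-fold), 2.5% of the list, with a median of −0.06. *Sdhb* lost its call when any 1 of 12 pools was left out. None of 23 genes of antigen presentation and complement was called by the edgeR quasi-likelihood test or DESeq2, 3 had an unadjusted p under 0.05 in each, and 1 rose under the likelihood ratio test of edgeR or with the *Xist* term. On TPM without TMM scaling the medians of the hypoxia (0.134), osmolyte (0.0515) and oxidative phosphorylation (0.0723) lists were above 0.

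**Figure D4:**
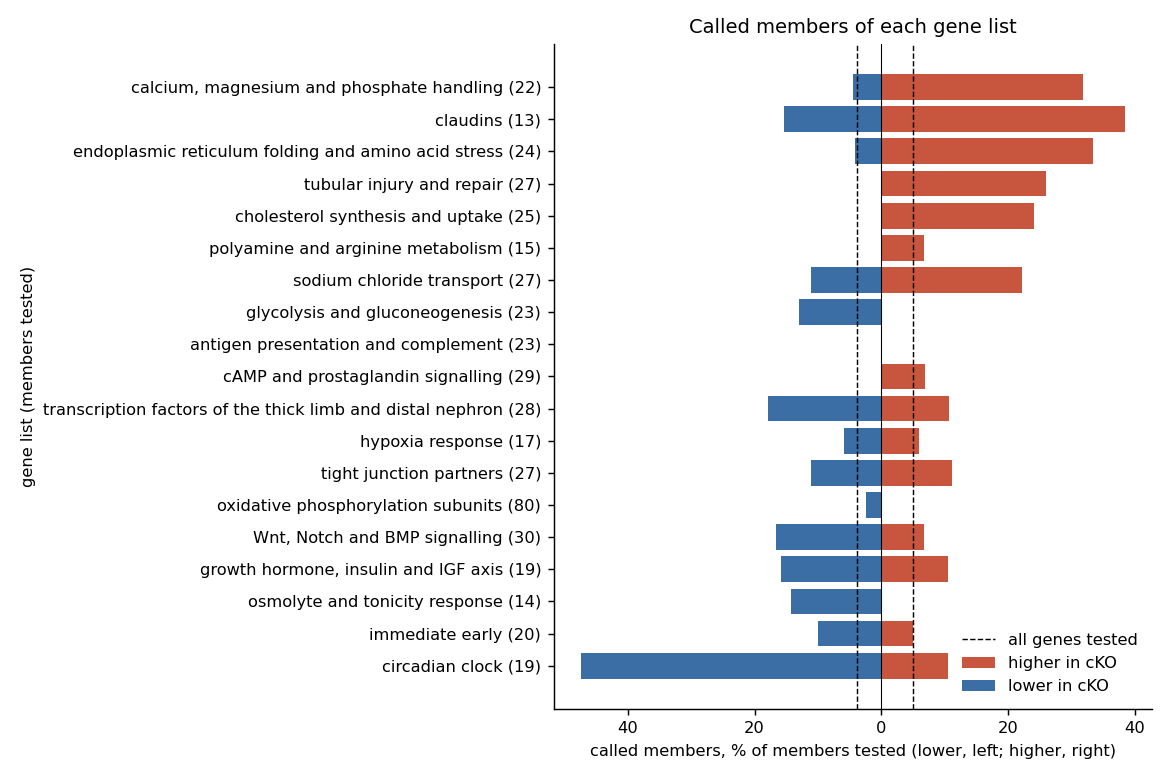
Share of the tested members of each gene list that rose or fell in cKO, in percent, with dashed lines at the shares over all genes (5.01% higher and 3.83% lower). The clock list has 9 falls among 19 genes, and the claudin and calcium lists have 5 of 13 and 7 of 22 members higher.

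Some genes changed by nearly the same amount in both segments. *Ptgds*, the synthase of prostaglandin D, fell by 1.04 in CTAL and 1.01 in MTAL on the log2 scale, with a difference of 0.02 (95% interval −0.61 to 0.65). It was at 11.2, 15.8, 17.1, 19.1 and 34.5 CPM in WT CTAL and at 8.69, 8.91, 9.02, 9.73 and 10.9 CPM in cKO CTAL. In MTAL it was at 43.6, 48.5, 54.1, 63.5 and 64 CPM in WT and at 24.7, 27.7 and 29.3 CPM in cKO pools, again with no overlap. *Gm45650*, a predicted gene (−1.83 and −1.81), *Zfp648*, a zinc finger gene (2.09 and 2.14), *Atp2b4* (1.24 and 1.28) and *Slc14a2*, the urea transporter (−1.96 and −1.91), were the other genes chosen for the smallest differences. Their intervals reached at least 1 on the log2 scale in either direction. For *Slc14a2* the CTAL value rested on WT CTAL replicate 3, at 47.1 CPM against 3.05 to 5.66 CPM in the other WT CTAL pools, and without it the averaged log2 fold change moved from −1.91 to −1.08.

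Dissected pools can carry other cells, and in bulk RNA fewer cells of a type cannot be told apart from less RNA per cell. Endothelial markers were lower in cKO. Of 10 tested 7 fell (70%, beside 8.84% of all genes), none rose and all 10 had a negative sign, with a median of −0.64. The markers summed to 313 to 627 CPM in WT CTAL, 260 to 377 in cKO CTAL, 365 to 574 in WT MTAL and 207 to 353 in cKO MTAL. *Cdh5*, the adhesion molecule of endothelial junctions, fell 1.99-fold (adjusted p = 0.000601), and *Tek*, an angiopoietin receptor, 1.82-fold with groups apart in both segments (adjusted p = 0.00036). *Kdr* (−0.55) was not called, and neither was the endothelial claudin *Cldn5*. With a term for *Xist* 4 markers fell. Over the 11 pools left without *Xist*, none of the 10 was called by edgeR, 5 had an unadjusted p under 0.05 and the median was −0.367. The podocyte markers that were tested were *Podxl*, which endothelium also expresses and which fell 1.52-fold, and *Synpo* (−0.14), and *Nphs1* and *Wt1* were under 1 CPM. Whether the endothelial share of the pools has a part in other falls was not tested.

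Of 9 intercalated cell markers 4 rose in cKO (*Slc4a9*, *Slc26a4*, *Atp6v0d2* and *Foxi1*), 44.4% beside 8.84% of all genes, and none fell, with a median of 1.5. Summed, the 9 were at 58.9 to 80.5 CPM in WT CTAL, 57.1 to 212 in cKO CTAL, 23 to 115 in WT MTAL and 50.1 to 309 in cKO MTAL. *Slc26a4*, which encodes pendrin, was at 23.5 and 30.5 CPM in cKO CTAL replicates 9 and 2 and at 3.53, 4.33 and 4.43 CPM in the other cKO CTAL pools. *Foxi1* was called at an adjusted p of 0.0401, and the exact two-sided permutation test of its levels within segments gave p = 0.0708. Without cKO MTAL replicate 20 the log2 fold change of *Foxi1* moved from 1.4 to 0.66, with no call, and that of *Slc26a4* from 2.2 to 1.44, still called. Once the *Xist* pools were left out, none of the 9 was called by edgeR and 4 had an unadjusted p under 0.05. Of 9 proximal tubule markers 1 was called, *Slc27a2* (2.2-fold, adjusted p = 0.00418), with a median of 1.1 and a positive sign in all 9. Of the 9, 7 had an unadjusted p under 0.05. Under the likelihood ratio test 4 rose in edgeR and 3 in DESeq2, and with 1 pool left out 1 to 7 rose. The proximal tubule markers summed to 90.9 to 299 CPM in WT CTAL, 80.5 to 441 in cKO CTAL, 87.5 to 167 in WT MTAL and 160 to 503 in cKO MTAL. *Slc2a2* and *Slc5a12* were under 1 CPM.

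None of 11 markers of principal cells and connecting tubule was called by the edgeR quasi-likelihood test or DESeq2, with 3 and 1 at an unadjusted p under 0.05, and their median was 0.77. With the likelihood ratio test of edgeR, library totals, the mean of the segment contrasts or the *Xist* term, 1 of them rose. Their sum was 133, 140 and 1099 CPM in cKO MTAL, beside 85.9 to 370 in WT MTAL. *Aqp2* was at 554 CPM in cKO MTAL replicate 20, the pool that also held the highest *Cldn14*, *Gh* and *Foxi1* values. Without that pool, *Cldn14*, *Gh* and all other genes of the largest rises kept their calls. Of 6 markers of the distal convoluted tubule 3 rose, *Wnk1*, *Tmem52b* and *Klhl3*, which the TAL also expresses, and *Slc12a3*, the defining cotransporter of that segment, was at 1.59 to 60.4 CPM over all pools and not called (log2 fold change 0.77, adjusted p = 0.332). Of 6 thin limb markers 1 rose (*Cldn4*) and 2 fell (*Aqp1* and *Slc14a2*), and of 9 markers of fibroblasts and pericytes 1 rose (*Dcn*, 1.87-fold, adjusted p = 0.0483), which lost its call when any 1 of 12 pools was left out. No marker of immune cells (9 tested), macula densa (3) or sex (5) was called by the edgeR quasi-likelihood test or DESeq2, with 3, 1 and 0 at an unadjusted p under 0.05 in each. On TPM without TMM scaling 1 immune and 1 sex marker rose, and as the mean of the segment contrasts 1 immune marker rose and 1 fell. The parts that these cells have in the changes of other genes were not tested. The 10 TAL markers summed to 84654 to 101043 CPM in CTAL pools of cKO and 86449 to 98063 in those of WT, and to 69523 to 82172 CPM in cKO MTAL and 52580 to 64077 in WT MTAL.

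**Figure D5:**
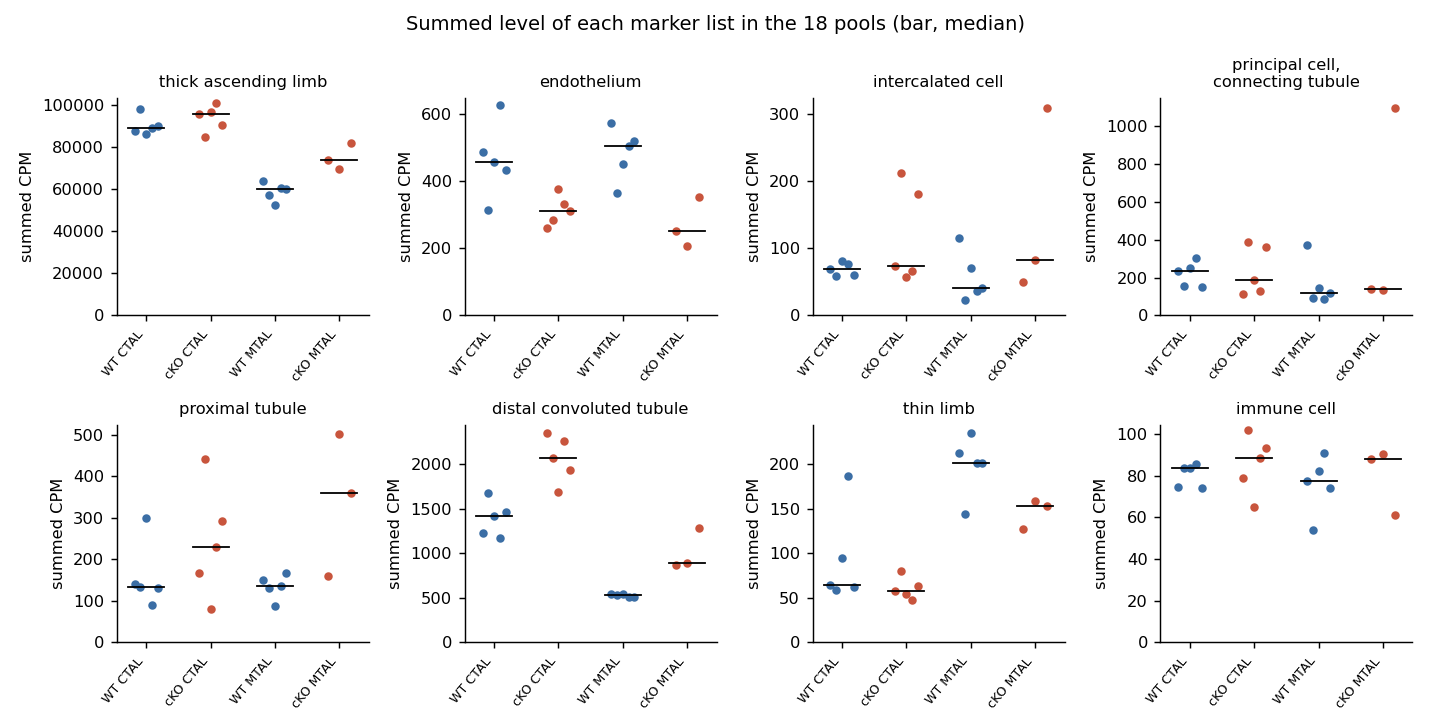
Summed CPM of 8 marker lists of cell types in each pool, by genotype and segment, with points for pools and bars for group medians. Endothelial sums are at 207 to 353 CPM in cKO MTAL against 365 to 574 in WT MTAL, and the intercalated and principal cell sums are high in a few cKO pools.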

How the data were processed

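RNA-seq data of 18 pools were used, 5 of WT CTAL, 5 of cKO CTAL, 5 of WT MTAL and 3 of cKO MTAL. After trimming by fastp, the authors used DRAGEN for mapping to mm10 and for quantification over a gencode annotation, and deposited 1 estimated count per gene and pool, not normalized. They also deposited TPM values, which correct the counts for transcript length and scale each pool to the same total. The submitters' processing notes name DRAGEN, FastQC, Picard, Trimmomatic and mm10. How counting treated strand and reads of several genes is not given in the sources used here. All columns were mapped to pools by their names.

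Estimated counts were rounded, where the plan had assumed whole counts. Genes that reached 3 CPM in 3 or more pools were fitted in edgeR (version 4.0.16, R version 4.3.3) with TMM scaling, segment as a block and genotype, and tested with the quasi-likelihood F test at an adjusted p under 0.05. The segments were fitted apart with the same test, and their difference as an interaction. Single genes were compared with an exact two-sided permutation test of log2(CPM + 1) within segments (252 times 56, or 14112 arrangements, smallest p 7.09e-05), in which 106 of the 109 genes with full statistics had p under 0.05 and 40 the smallest p. Alternatives used DESeq2 (version 1.42.0), limma (version 3.58.1) on log2(TPM + 1) and log2(TPM + 0.1), other scalings and filters, and each pool left out. Those that leave out the pools with *Xist*, scale TPM by TMM, or concern the interaction were added after the data were seen. The scripts were tested on simulated data.

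Replicate pairs differed by more than sampling noise (chi-square per gene 14.8 to 132 over 33 pairs). Each pool came from a distinct animal, so p-values measure the spread between animals and dissections. The gene lists and the rule for named genes were chosen with earlier results of these data known. The rule took *Cldn10*, the 10 largest rises and the 10 largest falls among called genes apart in both segments, passing over predicted genes and pseudogenes, up to 4 called members of each list by p, called cell type markers, the 5 called genes that changed at least 2-fold with the smallest difference between segments, and called genes of opposite sign, in all 94 genes. Another 15 were added after their values were seen, *Per2*, *Per3*, *Nr1d1*, *Cry2*, *Npas2*, *Arntl*, *Cldn15*, *Cldn19*, *Casr*, *Slc12a1*, *Egfr*, *Slc12a3*, *Aqp2*, *Slc34a1* and *Kdr*. Other list members named with a log2 fold change alone were also chosen after their values were seen. Of the 55401 gene identifiers 55141 were found in GENCODE release M21 (GRCm38), from which coordinates were taken. Several list members were counted in their lists but are not reported here by name. Promoter windows are those of RefSeq on GRCm38.p6.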

Additional observations from a re-analysis of the deposited data

Results flagged for a closer look

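Of 318 groups of 5 pools tested, over the genes with full statistics that are reported here, 26 held 1 pool far from the others of its group by Dixon's test. Chance flags about 1 in 20 groups. In cKO CTAL, replicate 2 was high for *Calr* (951 CPM, others 437 to 539), *Pdia4* (198, others 89.1 to 106), *Pdia6* (206, others 107 to 118), *Sdf2l1* (41.6, others 8.39 to 11.9), *Ildr1* (199, others 142 to 155) and *Arg2* (51.7, others 20.4 to 26.2), and low for *Nr3c2* (33.9, others 43.9 to 46.9). It was the cKO pool with *Xist* reads. In the same group replicate 9 was low for *Kl* (618 CPM).

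In WT CTAL, replicate 22 was high for *Slitrk4* (1.51 CPM), *Npas2* (2.58), *Amotl2* (200 CPM), *Cldn4* (7.95) and *Slc34a1* (26 CPM, others 3.4 to 5.66). Replicate 3 was high for *Slc14a2* (47.1 CPM, others 3.05 to 5.66) and *Ptges* (4.54) and low for *Zfp648* (0.851). Replicate 8 was high for *Nr1d2* (182 CPM) and *Per3* (46.2, others 15.5 to 19.3) and low for *Calr* (350 CPM). In WT MTAL, replicate 13 was high for *Cldn14* (5.04 CPM), *Zfp648* (2.9) and *Atp2b4* (14.2), replicate 15 was high for *Irs1* (210 CPM) and low for *Slitrk4* (0.102), replicate 17 was low for *Ildr1* (105 CPM), and replicate 11 was high for *Fosb* (667 CPM, others 117 to 145).

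The genotype effect differed between segments for 5 of these genes, by the interaction term of the fit of all pools. As MTAL minus CTAL on the log2 scale, the difference was 1.53 for *Pth1r* (adjusted p = 0.00356), 1.23 for *Cldn16* (0.00121), −1.67 for *G6pc* (0.0453), 0.61 for *Umod* (0.045) and 1.88 for *Foxq1* (0.00121). *Foxq1* lost its call in the additive model when any 1 of 9 pools was left out.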

How the results depend on the processing

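None of the 109 genes with full statistics changed sign in an alternative where it was called there or in the main model. Of the uncalled genes, *Aqp2* moved from 0.83 to −0.17 on the log2 scale with 1 pool left out. *Slc12a1*, also uncalled, moved from −0.11 to 0.042 in another alternative. Calls numbered 545 on TPM with TMM scaling, 509 with an *Xist* term and 78 without the *Xist* pools, and 747 to 1165 with 1 pool left out. Rises numbered 1092 on log2(TPM + 1), 1090 on log2(TPM + 0.1), 300 with TMM scaling of TPM, 415 without a segment term, 323 with the *Xist* term and 39 without the *Xist* pools (432 to 668 with 1 pool left out). Falls numbered 134, 141 and 245 on these TPM scales, 734 as the mean of the contrasts of the 2 segments, 186 with the *Xist* term and 39 without the *Xist* pools (315 to 521 with 1 pool left out). Changes of at least 2-fold numbered 370 without a filter, 130 on log2(TPM + 1), 88 after TMM scaling and 47 without the *Xist* pools (159 to 261). CTAL gave 38 calls without the *Xist* pools (76 to 184 with 1 pool left out). MTAL gave 2136 as a contrast of all pools and 0 without the *Xist* pools, where edgeR had 1 WT pool and 693 genes at an unadjusted p under 0.05 (474 to 1013 with 1 pool left out). The difference between segments gave 17 calls with WT CTAL replicate 1 as cKO (15 to 569 with 1 pool left out). The groups were apart in both segments for 593 genes without the *Xist* pools, where fewer pools had to be apart (187 to 256 with 1 pool left out). The cause of these shifts was not tested. No paired analysis was possible because the pool numbers are not shared between groups. With 3 cKO MTAL pools, changes in MTAL rest on few animals, and genes at a few CPM, such as *Gh* in WT pools, on few reads.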
